A study of Mus musculus with 7 samples.

Results

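Mitochondria carry their own ribosomes, which translate the few messages encoded in mitochondrial DNA. All of these messages specify membrane subunits of the respiratory chain and of ATP synthase. The ribosomal RNAs come from mitochondrial DNA, whereas every protein of these ribosomes is encoded in the nucleus, made in the cytosol and imported. In the satellite cell, the resident stem cell of muscle, mitochondrial content is known to be low in quiescence and to increase on activation. The genes described here are those of the array with names that begin with Mrpl (large subunit, which joins amino acids and guides the new chain to the inner membrane) or Mrps (small subunit, which decodes the messenger RNA) followed by a digit. They comprised 76 genes read by 100 probes, out of 36406 names and 55681 probes other than controls. Of these, 47 genes with 61 probes belonged to the large subunit and 29 genes with 39 probes to the small subunit.

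RNA levels in freshly sorted satellite cells of young and geriatric mice were compared, on 7 Agilent 1-colour arrays, which bears on how very old age alters quiescence of these cells in muscle that was not challenged. All mice were male and of the C57BL/6 strain. Young mice were aged 2, 2 and 3 months (3 arrays), and geriatric mice 28, 28, 29 and 30 months (4 arrays). Cells of both ages were sorted for integrin α7 and CD34 and against CD31, CD45, CD11b and Sca1, and RNA of both was amplified for very small cell numbers before Cy3 labelling. No treatment, injury or transgene is given for either age. The titles call the arrays biological replicates, but the number of mice behind an array is not stated, so p-values measure only the spread between these samples. The descriptions give the same sample name to geriatric replicates 1 and 2. For 95.5% of probes these arrays differed by less than 2 of their joint errors, whereas the share was 59.7% to 67.1% in every other pair. They were therefore averaged as 1 sample, and 3 young samples were compared with 3 geriatric samples. Levels below are log2 of the processed signal relative to the 75th percentile of the same array, and differences are geriatric minus young.

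Sequences of a few of these genes show how they are read and what lies before them. The stretches shown were chosen because they precede the member with the smallest p (Mrps22), a gene pair that is shared between both subunits, and pairs of a ribosomal gene with another housekeeping gene. All are given 5′ to 3′ from RefSeq's promoter windows on GRCm38, and capitals mark 8 bases of the NRF-1 core (GCATGCGC) or 7 bases of the ETS core (CCGGAAG) on either strand, where overlapping matches run together. NRF-1 and ETS factors of the GABP type are textbook regulators of nuclear genes for mitochondrial proteins. The first stretch is the 250 bases before the start of Mrps22 (chr9:98601680-98601929, minus strand), and the others are the bases between divergent starts, on the plus strand.
Mrps22: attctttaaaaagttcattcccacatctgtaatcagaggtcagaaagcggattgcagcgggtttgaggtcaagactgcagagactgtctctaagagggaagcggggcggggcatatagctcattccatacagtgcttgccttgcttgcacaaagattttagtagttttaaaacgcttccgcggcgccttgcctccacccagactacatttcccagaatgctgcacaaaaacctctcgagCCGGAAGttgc
Mrps11 and Mrpl46 (chr7:78783090-78783130): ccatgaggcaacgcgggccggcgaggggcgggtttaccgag
Mrpl32 and Psma2 (chr13:14613038-14613241): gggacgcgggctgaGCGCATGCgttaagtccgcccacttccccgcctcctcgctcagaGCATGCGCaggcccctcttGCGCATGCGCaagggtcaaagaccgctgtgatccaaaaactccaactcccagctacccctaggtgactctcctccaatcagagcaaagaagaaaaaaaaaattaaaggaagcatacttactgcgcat
Mrpl49 and Fau (chr19:6057756-6057946): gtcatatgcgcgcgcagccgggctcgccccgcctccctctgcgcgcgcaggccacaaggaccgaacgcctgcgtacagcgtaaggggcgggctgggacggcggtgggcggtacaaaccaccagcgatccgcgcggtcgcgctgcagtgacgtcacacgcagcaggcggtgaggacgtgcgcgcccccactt
Only 41 bases separate the starts of Mrps11 and Mrpl46, so that a small subunit and a large subunit gene leave 1 short stretch in opposite directions.

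Promoter windows were given for 67 of the 76 genes, 41 of the large and 26 of the small subunit. The NRF-1 core was present in the 300-base windows of 7 large subunit genes (17.1%) and 1 small subunit gene (3.85%), against 2.80% of all 27025 genes with a window. The ETS core was present in 12 large subunit windows (29.3%) and 11 small subunit windows (42.3%), against 9.12% of all genes. The YY1 core (AAGATGGCG) was found in 4 large (9.76%) and 4 small subunit windows (15.4%), against 1.49% of all, and TATAAA in 2 large (4.88%) and 2 small (7.69%), against 14.2% of all. The windows of both subunits were richer in G and C, with medians of 57.7% for the large and 59.2% for the small subunit against 52.7% for all genes. The part of base composition in these shares was not tested. Within 1000 bases of its start, 41.5% of large and 30.8% of small subunit genes had a gene running the other way, against 12.2% of all genes. A match to these letters is a description of the window and shows no binding.

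The transcripts of nearly all of these genes were well measured on every array. Of the 100 probes, 99 were well above background on all 7 arrays, against 60.9% of all probes, and no spot was saturated. The exception was the probe of Mrpl21, which was not well above background in geriatric replicate 3. All 76 genes therefore passed the filter (well above background on at least 3 of 7 arrays), together with 27398 features in all. Across arrays, 38052 to 41293 probes were well above background and the 75th percentile of the signal was 1330 to 1612 intensity units.

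None of the 76 genes passed the limma test (adjusted p of 0.05 over all tested features) between the ages, in either direction. Over all features, 7 of 27398 were called (0.0255%), 3 higher (0.0109%) and 4 lower (0.0146%) in geriatric cells. The smallest adjusted p was 0.773 in the large subunit and 0.670 in the small subunit. Of the large subunit 0 genes, and of the small subunit 1 gene, Mrps22, had an unadjusted limma p under 0.05, against 4.41% of features higher and 2.82% lower. Differences were small: they ran from -0.58 for Mrpl21 to 0.27 for Mrpl30 in the large subunit and from -0.63 for Mrps11 to 0.53 for Mrps22 in the small subunit. The median standard error of a difference was 0.22 log2 units in both. For 37 of 47 large subunit and 21 of 29 small subunit genes the 95% limma interval lay within 1 log2 unit of 0 on either side. For the others, Mrpl21 and Mrps11 among them, the interval still held a change of 2-fold.

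**Figure D1:**
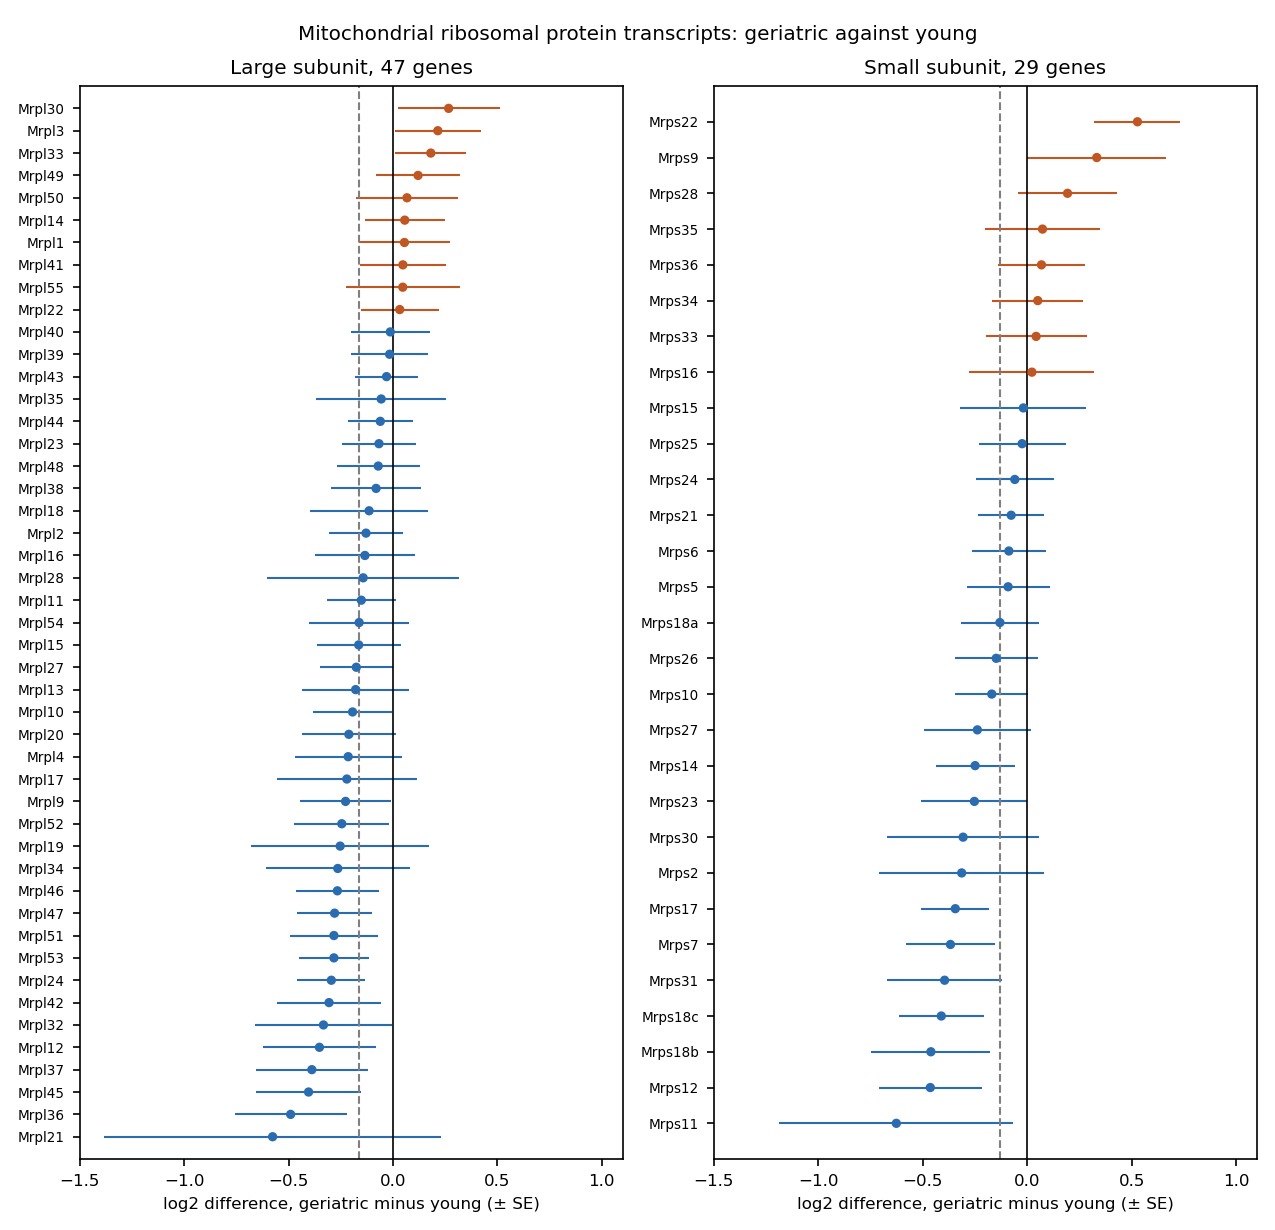
Log2 difference (geriatric minus young, x axis) of each gene of the large subunit (left, 47 genes) and the small subunit (right, 29 genes), with its standard error as a line; blue points lie below 0, orange points above 0, and the dashed line is the median of the subunit. Most points lie to the left of 0 (37 of 47 and 21 of 29), and the errors of Mrpl21 and Mrps11 are the widest of their subunits.

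The signs leaned to lower values in geriatric cells in both subunits, by small amounts. In the large subunit 37 of 47 genes lay below 0 with a median of -0.16, and in the small subunit 21 of 29 lay below 0 with a median of -0.13. Over all tested features 50.4% lay below 0, 49.6% lay above it, and the median was -0.0032. The 76 genes share arrays, and their signs are not independent, so these counts are a description of 6 samples. In bulk samples, a lower level from less RNA per cell and one from fewer cells with that RNA cannot be told apart.

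The lean did not separate the samples. As the median over large subunit genes of each sample's deviation from the gene's own mean, young samples 1, 2 and 3 stood at 0.16, -0.05 and 0.08, and the averaged geriatric sample and geriatric samples 3 and 4 at -0.06, -0.16 and 0.02. For the small subunit the young samples stood at 0.13, -0.09 and 0.14 and the geriatric samples at -0.06, -0.23 and 0.05. Young sample 2 was below geriatric sample 4 in both subunits, so the ages overlapped. Geriatric sample 3 was lowest in both, with 32 of 47 large and 22 of 29 small subunit genes under their own mean. Without that array the large subunit median was -0.06 and that of the small subunit -0.10. Young sample 2 had 26 of 47 large and 20 of 29 small subunit genes under their own mean.

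**Figure D2:**
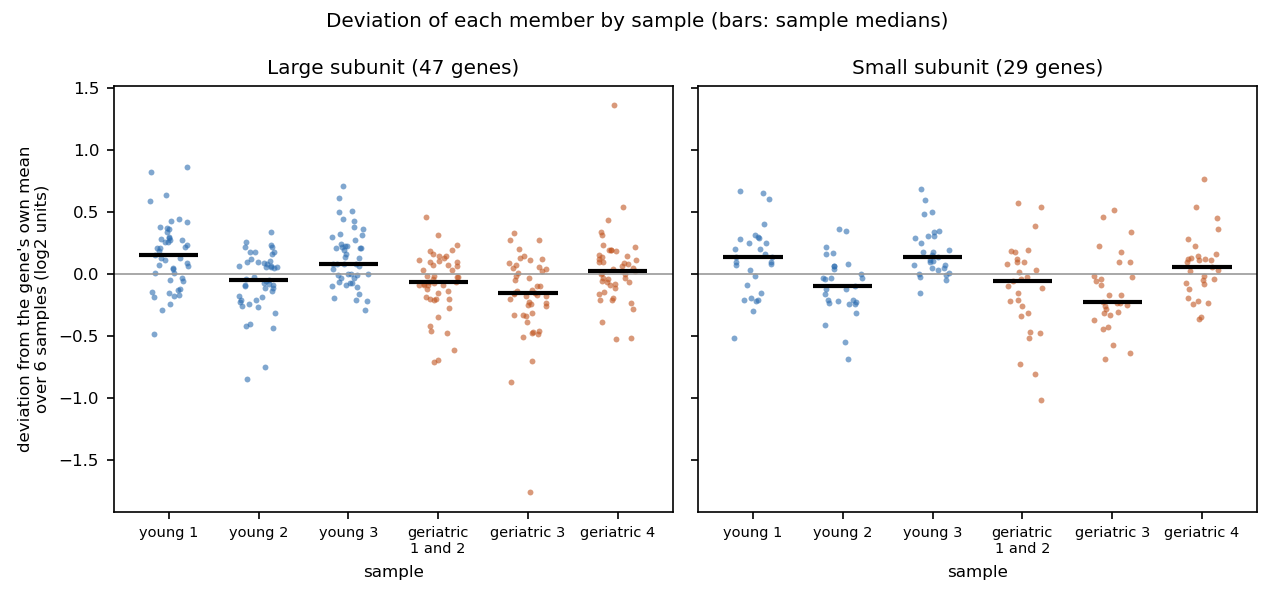
Deviation of each gene from its own mean over the 6 samples (y axis, log2 units) by sample (x axis), for the large subunit (left) and the small subunit (right); each point is 1 gene, blue for young and orange for geriatric, and the black bar is the median of the sample. Young 2 sits below geriatric 4 in both panels (-0.05 against 0.02, and -0.09 against 0.05), and geriatric 3 has the lowest median.

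The last digits of the descriptions were read here as the row and column of an array on the slide, a reading that was not checked. Read so, the position moved with age. Row 1 held the 3 young arrays and geriatric replicate 1, and row 2 held the other geriatric arrays. Within row 1, where the geriatric group is 1 array, the median difference was -0.06 in the large subunit (29 of 47 genes below 0) and -0.13 in the small subunit (22 of 29 below 0). With row as a term over all 7 arrays the fit gives this same difference by construction, since row 2 held no young array. The part of slide row in the large subunit's median was not tested further.

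Among large subunit proteins, the 5 genes below 0 with the smallest p were Mrpl36, Mrpl24, Mrpl53, Mrpl45 and Mrpl47. Mrpl24 has a bacterial counterpart that helps to start the folding of the ribosomal RNA and lies near the exit of the peptide tunnel. It stood at 3.38, 3.51 and 3.42 in young samples and 3.17, 2.97 and 3.28 in geriatric samples. Every geriatric value of Mrpl24 was under every young value, with a difference of -0.29 (SE 0.16, limma adjusted p = 0.773). Mrpl53, a protein with no bacterial counterpart, was the other large subunit gene with groups that did not overlap. It stood at 2.17, 2.50 and 2.24 in young samples, with 2.07, 2.06 and 1.93 in geriatric samples, and its difference was -0.28 (SE 0.17, limma adjusted p = 0.790). Groups that did not overlap, lower in geriatric samples, were thus seen in 2 of 47 large subunit genes, against 5.68% of all features, which is near the background.

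Mrpl36, a short protein with a bacterial counterpart, had a difference of -0.49 with the widest error of the 5 (SE 0.27, limma adjusted p = 0.773). It stood at 0.51, 0.17 and 0.72 in young samples and at -0.47, 0.25 and 0.15 in geriatric samples. Only the averaged geriatric sample lay clearly below the young samples, and the other geriatric values of Mrpl36 lay within or near the young range. Within row 1, where that sample's first array stands alone, the difference of Mrpl36 was -0.93, and without the averaged sample it was -0.27.

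Mrpl45, which lies at the peptide exit and holds the ribosome to the inner membrane, stood at -0.27, -0.56 and -0.08 in young and at -0.85, -0.98 and -0.29 in geriatric samples. Here geriatric sample 4 overlapped the young samples, and the difference was -0.40 (SE 0.25, limma adjusted p = 0.803). Mrpl47 was steady in young samples at 0.03, 0.00 and 0.09, and lay at -0.30, -0.43 and 0.02 in geriatric samples. Its difference was -0.28 (SE 0.18, limma adjusted p = 0.810), again with geriatric sample 4 inside the young range. As the mean of its probes the difference of Mrpl47 was -0.07. Mrpl12, the stalk protein that recruits translation factors, stood at 2.58, 1.90 and 2.52 in young and 2.07, 1.65 and 2.22 in geriatric samples. Its difference of -0.35 (SE 0.27, limma adjusted p = 0.844) was close to its spread between young samples (SD 0.38, n = 3).

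Above 0, the 5 large subunit genes with the smallest p were Mrpl30, Mrpl33, Mrpl3, Mrpl49 and Mrpl14. Mrpl30 stood at 1.65, 1.39 and 2.03 in young and at 1.75, 1.87 and 2.26 in geriatric samples. The ages overlapped through young sample 3, and the difference was 0.27 (SE 0.24, limma adjusted p = 0.877). Mrpl33 differed by 0.18 (SE 0.17), from 4.27 ± 0.19 to 4.45 ± 0.06 (SD, n = 3). Mrpl3, whose bacterial counterpart reaches towards the peptidyl transferase centre, went from 0.59 ± 0.30 to 0.81 ± 0.07, a difference of 0.21 (SE 0.20). In both genes the young samples spread more widely than the geriatric ones. Mrpl49 differed by 0.12 (SE 0.20) and Mrpl14, a protein of the subunit interface, by 0.06 (SE 0.19). For these 4 the limma adjusted p was 0.882 to 0.973. The sign was not stable for Mrpl49, at -0.09 as the mean of its probes, or for Mrpl14, at -0.03 with arrays scaled to their median.

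In the small subunit, Mrps22 was the gene that stood furthest above 0. Mrps22 has no bacterial counterpart and is known as a gene of inherited mitochondrial disease. Its levels were 1.26, 0.92 and 1.45 in young samples and 1.66, 1.93 and 1.62 in geriatric samples. Every geriatric value was above every young value, by 1.44-fold in the mean (difference 0.53, SE 0.21). The unadjusted limma p was 0.0437 and the adjusted p 0.670, so Mrps22 did not pass. Over all features 7.15% had groups that did not overlap with geriatric higher, and 1 of 29 small subunit genes did. Its single probe lies at chr9:98489251-98489310 on mm9, on the minus strand, and its difference was 0.38 to 0.65 over all settings tried.

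Below 0, Mrps17 and Mrps18c were the small subunit genes with groups that did not overlap, 2 of 29 against 5.68% of all features. Mrps17, with a bacterial counterpart that binds ribosomal RNA early in assembly, stood at 2.26, 2.04 and 2.10 in young and 1.80, 1.65 and 1.91 in geriatric samples. Its difference was -0.34 (SE 0.16, limma adjusted p = 0.739), and its second probe gave the same -0.34 (SE 0.17). Mrps18c, 1 of 3 relatives of a single bacterial protein, was tight in young samples at 1.37, 1.33 and 1.41 and spread in geriatric samples at 0.65, 1.26 and 0.97. All 3 geriatric values were lower, with geriatric sample 3 close to the young range, and the difference was -0.41 (SE 0.20, limma adjusted p = 0.747). The difference of Mrps18c was -0.26 without the averaged geriatric sample, its lowest value, and -0.69 within row 1.

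**Figure D3:**
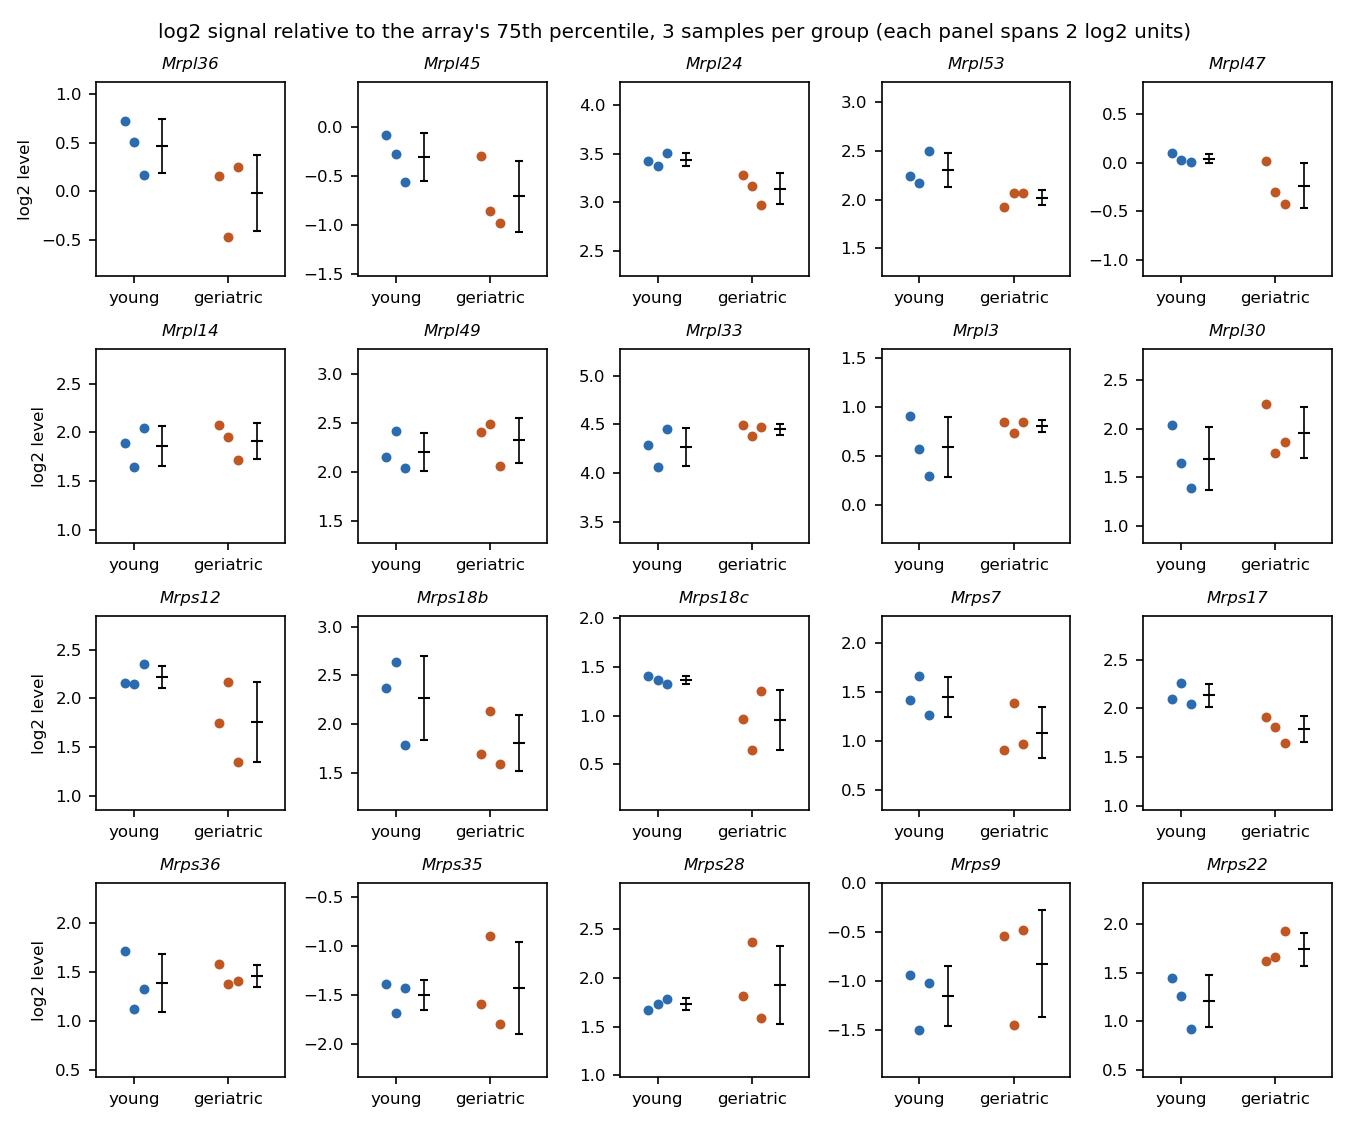
Log2 level relative to the array's 75th percentile (y axis) of the 20 named genes in 3 young (blue) and 3 geriatric (orange) samples, with mean and SD in black; every panel spans 2 log2 units, and levels are not comparable between panels. Points of the ages do not overlap for Mrpl24, Mrpl53, Mrps17, Mrps18c (geriatric lower) and Mrps22 (geriatric higher).

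Mrps12, whose bacterial counterpart sits at the decoding centre, stood at 2.14, 2.35 and 2.16 in young and at 2.17, 1.35 and 1.74 in geriatric samples. The averaged geriatric sample lay within the young range and geriatric samples 3 and 4 were lower, for a difference of -0.46 (SE 0.25, limma adjusted p = 0.764). Within row 1 the difference of Mrps12 was -0.07. Mrps7, of the head of the subunit, likewise had its highest geriatric value in the averaged sample, with 1.67, 1.26 and 1.42 in young and 1.39, 0.96 and 0.90 in geriatric samples. Its difference was -0.37 (SE 0.21, limma adjusted p = 0.783) by the brighter probe and -0.62 (SE 0.25) by the other, and -0.07 within row 1. The averaged sample's arrays, 1 in each row of the slide, read alike, at 2.14 in row 1 and 2.20 in row 2 for Mrps12 and at 1.38 and 1.39 for Mrps7. The part of slide row in the differences of Mrps12 and Mrps7 was not tested.

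Mrps11, of the platform of the small subunit, had the lowest difference of all 76 genes and the widest error of its subunit. It stood at 1.32, 0.23 and 1.33 in young samples and at -0.37, -0.04 and 1.41 in geriatric samples. Geriatric sample 4 was the highest of all, and young sample 2 was low, so the difference of -0.63 had an SE of 0.56 (limma adjusted p = 0.873). Mrpl46 of the central protuberance, which starts 41 bases from Mrps11, stood at -1.10, -1.01 and -0.69 in young and -1.35, -0.98 and -1.28 in geriatric samples (difference -0.27, SE 0.20). The high value of geriatric sample 4 in Mrps11 was not seen in Mrpl46, although their starts share the short stretch printed above.

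Besides Mrps22, the small subunit genes above 0 with the smallest p were Mrps9, Mrps28, Mrps36 and Mrps35. Mrps9, with a bacterial counterpart whose tail touches transfer RNA, stood at -1.51, -1.02 and -0.94 in young and at -1.46, -0.48 and -0.54 in geriatric samples. The averaged geriatric sample was as low as young sample 1, and the difference was 0.33 (SE 0.33, limma adjusted p = 0.890), or -0.22 within row 1. Mrps28 differed by 0.19 (SE 0.24), Mrps35 by 0.07 (SE 0.28) and Mrps36 by 0.07 (SE 0.21), with limma adjusted p of 0.913 to 0.976. Without the averaged geriatric sample Mrps28 was at -0.03 and Mrps35 at -0.19, and with arrays scaled to their median Mrps36 was at -0.02.

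Some names do not match the place of the protein. Mrps30 and Mrps18a are found in the large subunit of the mammalian ribosome in spite of their names, and Mrps36 is now known as a subunit of the oxoglutarate dehydrogenase complex. Mrps30 stood at 0.29, -0.01 and 0.80 in young and at -0.60, 0.43 and 0.33 in geriatric samples (difference -0.31, SE 0.36, limma adjusted p = 0.909). Without the averaged geriatric sample, its lowest value, the difference was 0.02. Mrps18a stood at 2.74, 2.33 and 2.48 in young and 2.24, 2.36 and 2.56 in geriatric samples (difference -0.13, SE 0.19, limma adjusted p = 0.923). Without young replicate 1 the difference of Mrps18a was -0.02.

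The genes differed in their spread between samples. The median residual SD was 0.25 log2 units in the large and 0.24 in the small subunit, against 0.36 over all tested features. It was smaller still for cytosolic ribosomal proteins (0.14) and for the respiratory chain and ATP synthase (0.16). The probes of the 76 genes were also brighter, with a median level of 1.11 against -2.84 over all probes, tested or not. The part of brightness in the spread was not tested. Mrpl43 was the steadiest, at 1.75, 1.79 and 1.93 in young and 1.79, 1.76 and 1.83 in geriatric samples, and Mrpl44 and Mrps21 followed with residual SDs of 0.099 and 0.10. Among the wide ones, Mrpl28 stood at -0.11, -1.79 and -0.70 in young samples, Mrpl19 at -0.48, -1.65 and -0.19, and Mrps2 at 2.64, 1.30 and 2.49. In all 3 of these genes young sample 2 was the lowest of the 6 samples, and the differences between ages were -0.14 (SE 0.46), -0.25 (SE 0.43) and -0.31 (SE 0.40). For Mrps2 this holds for the brighter probe only. Its other probe stood at 1.23, 1.30 and 1.41 in young and 1.44, 1.51 and 0.96 in geriatric samples (difference -0.01, SE 0.21). Mrpl34 was low in geriatric sample 3 alone, at -0.08 against 0.85 to 1.13 in the other samples.

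The genes were also grouped by role, and no gene of any group passed the limma test. Of large subunit proteins with a bacterial counterpart, 22 of 28 lay below 0 (median -0.17), and of those without, 14 of 17 (median -0.08). Within row 1 the former split as 15 below and 13 above 0, with a median of -0.03. All 3 stalk proteins (Mrpl10, Mrpl11 and Mrpl12) lay below 0, with a median of -0.19, and Mrpl10, the base of the stalk, was at -0.19 (SE 0.19). All 6 proteins of the central protuberance also lay below 0, with a median of -0.10, led by Mrpl46 and by Mrpl27 at -0.18 (SE 0.18). With normexp and quantile normalization 5 of the 6 did (median -0.07). Mrpl40 was at -0.01 by its brighter probe and at 0.10 by the other, and the other probe of Mrpl27 was at 0.02. The remaining genes of this group had a single probe. At the peptide exit 6 of 7 lay below 0, with a median of -0.07, and Mrpl22 was the exception at 0.03 (SE 0.19), but within row 1 the median was 0.02. Of small subunit genes listed as having a bacterial counterpart, 14 of 16 lay below 0 (median -0.21), with Mrps9 and Mrps16 above. The lists follow the numbers in gene names and not the places of the proteins given above. Mrps18a was thus counted among these 16, and Mrps30 and Mrps36 among the 13 of the other list. The counterpart of each protein was not checked, so some proteins listed as without a bacterial counterpart may have one. Those listed as without a bacterial counterpart were nearly balanced, with 7 of 13 below 0 and a median of -0.02. Their median was 0.09 without geriatric replicate 3 and 0.05 with normexp and quantile normalization. After Mrps22, the smallest p among them was that of Mrps31, at -0.40 (SE 0.27, limma adjusted p = 0.826). Mrpl47 and Mrpl55 were in none of the large subunit lists, that of the peptide exit included, so these lists are not complete. Whether the groups differ from each other was not tested.

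Where a gene had several probes, their differences could be set side by side. Of 23 such genes, 15 had probes of the same sign, 6 of 13 in the large and 9 of 10 in the small subunit, against 62.8% of 4739 names with several tested probes. The median gap between probes was 0.15 log2 units, against 0.28 over all names. The largest gap, 1.01, was that of Mrps18b. Its brighter probe (chr17:36047331-36047390 on mm9) stood at 2.64, 1.79 and 2.38 in young and 2.13, 1.59 and 1.69 in geriatric samples, a difference of -0.46 (SE 0.29, limma adjusted p = 0.802). Its other probe, whose 60 bases span 149 on the genome and so cross an exon junction (chr17:36051313-36051461), stood at 1.28, 0.38 and 0.77 in young and 1.11, 1.17 and 1.80 in geriatric samples. That probe's difference was 0.55 (SE 0.32), opposite in sign to the brighter one, while both were lowest among young samples in sample 2. Its sequence is shown because it crosses a junction, unlike that of the brighter probe.
Mrps18b junction probe: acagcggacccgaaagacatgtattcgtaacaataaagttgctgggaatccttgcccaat
Mrpl47 had the next largest gap, 0.69, between its probes at -0.31 and 0.38, and Mrpl49 the third, 0.43, between 0.12 and -0.30. Mrps14 had both probes below 0, at -0.25 (SE 0.20) and -0.49 (SE 0.19).

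Differences were set beside the promoter matches. The 8 genes with an NRF-1 core had a median of -0.21 and the 59 without it -0.14, with 6 of 8 and 46 of 59 below 0. The 23 genes with an ETS core had a median of -0.18, among them both Mrps22 at 0.53 and Mrps18b at -0.46, and the 44 without it had -0.14. Below 0 lay 17 of the 23 with an ETS core and 35 of the 44 without it. All 8 genes with a YY1 core lay below 0, as did 44 of the 59 without it, with medians of -0.27 and -0.14. All 4 with TATAAA lay below 0, as did 48 of the 63 without it, with medians of -0.20 and -0.15. Whether genes with and without a match differ was not tested. Mrpl32, whose stretch with Psma2 carries the repeated NRF-1 core shown above, stood at 0.37, 0.64 and 1.17 in young and -0.15, 0.68 and 0.66 in geriatric samples. Its difference was -0.33 (SE 0.33), while Psma2, a proteasome subunit, was at -0.03 (SE 0.18). Mrpl49 (0.12) and its neighbour Fau (-0.08, SE 0.17), which encodes a cytosolic ribosomal protein, were also close to 0. As a set the neighbours were not. Of 23 neighbours tested under their RefSeq names, 19 lay below 0, with a median of -0.27, against 50.4% of all features below 0. For 15 of the 23 the sign was that of the member. Mrps11 and Mrpl46, each the other's neighbour, are both counted, and the median given is the value of Mrpl46 itself. Whether members and neighbours move together was not tested. Mrpl43 (-0.03, SE 0.15) has the helicase gene Twnk as its neighbour, which the array lists as Peo1 and which was at -1.41 (SE 0.53, limma adjusted p = 0.653).

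Genes that work with the mitochondrial ribosome mostly lay below 0 as well, and none of them passed the limma test. Of ribosomal proteins listed under other names, 6 of 7 lay below 0, with a median of -0.16. Dap3, a GTP-binding protein of the small subunit, stood at 2.57, 2.27 and 2.61 in young and 1.99, 2.04 and 2.26 in geriatric samples. All geriatric values of Dap3 were under the young ones, narrowly in sample 4 (difference -0.38, SE 0.18, limma adjusted p = 0.739). Mrp63, a large subunit protein, was at -0.31 (SE 0.24).

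Of factors that assemble the ribosome, 15 of 18 lay below 0 (median -0.11, or 0.02 within row 1), with Mterfd1 at 0.47 (SE 0.23) and the helicase gene Ddx28 at -0.69 (SE 0.41). Of translation factors 9 of 13 lay below 0 (median -0.12), with the initiation factor gene Mtif3 at -0.55 (SE 0.30) and Taco1, the activator of cytochrome oxidase translation, at -0.69 (SE 0.50). The list of aminoacyl-tRNA synthetases, which load mitochondrial transfer RNAs, had the lowest median of these lists, at -0.26 with 16 of 20 below 0. It also holds genes of the mitochondrial tRNA amidotransferase, such as Qrsl1 and Gatc, which are not synthetases. Rars2, for arginine, stood at -1.06, -0.76 and -0.78 in young and at -1.36, -1.53 and -1.72 in geriatric samples. The ages did not overlap in Rars2, and its difference was -0.67 (SE 0.18, limma adjusted p = 0.492). Nars2, for asparagine, had a dim probe that did not stand well above background on any of 4 geriatric arrays but did on the 3 young ones, so its difference is only a bound. The bound on its difference was 2.11-fold, lower in geriatric cells. For this bound the geriatric samples were set at the lowest signal well above background on each array, or at their own where that was higher. Nars2 passed the filter only through the young arrays, so its direction was set by the filter and no test of it is read. It is counted in the median of the list and among the 16 of 20 below 0. Groups without overlap, lower in geriatric samples, were seen in 4 of the 20 genes of the synthetase list, against 5.68% of all features. That count was made with Nars2 left in the list, and the share without Nars2 is not given, so no excess is read from it. Without the averaged geriatric sample the median of the synthetase list was -0.13.

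Genes for mitochondrial DNA and RNA upkeep had 10 of 14 below 0 (median -0.15), led by Peo1 and by Elac2, which trims transfer RNA (-0.53, SE 0.23). Of 11 mitochondrially encoded genes, whose messages these ribosomes translate, 9 lay above 0 with a median of 0.03, but only 3 did with arrays scaled to their median (median -0.05) and 1 within row 1 (median -0.15). Geriatric sample 4 was high in them, with a median deviation of 0.46, and without it the median was -0.18. CYTB was at 0.20 (SE 0.22) and COX1 at 0.11 (SE 0.17). Nuclear genes of the respiratory chain and ATP synthase had 52 of 80 below 0, with a median of -0.05, Cox8b at 1.82 (SE 0.38, limma adjusted p = 0.329) and Atp5j at -0.41 (SE 0.18). Proteins of the cytosolic ribosome had 65 of 77 below 0 with a median of -0.08, which was -0.27 within row 1. Rpl21 was at -0.93 (SE 0.21) and Rpl10l at 0.51 (SE 0.16). A majority of signs below 0 was thus seen for ribosomal proteins of the cytosol as for those of mitochondria, and the difference between the lists was not tested.

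**Figure D4:**
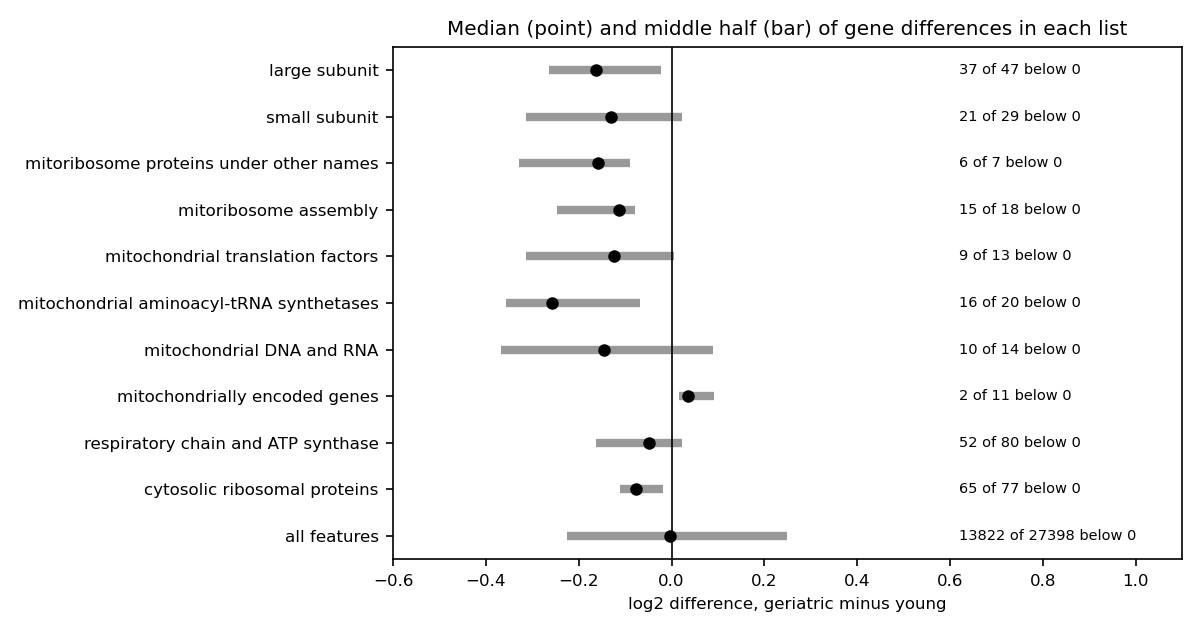
Median (point) and interquartile range (bar) of the log2 differences, geriatric minus young (x axis), in lists of mitochondrial and ribosomal genes (y axis), with the count of genes below 0 at the right. The synthetase list has the lowest median (-0.26), the mitochondrially encoded genes are at 0.03, and all features are at -0.0032.

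The sorted cells carried their defining markers at both ages, and markers of other muscle cells were measured too. All 10 satellite cell markers were well above background on all arrays, with 5 above and 5 below 0 and a summed level, as a multiple of the 75th percentile, of 110 to 135 in young and 112 to 121 in geriatric samples. Pax7 was at 4.09 ± 0.37 and 4.12 ± 0.22 (SD, n = 3). Fibro-adipogenic progenitor markers summed to 44.3 to 59.8 in young and 56.9 to 65.2 in geriatric samples, with 7 of 9 tested above 0 and Pdgfra not measured well enough to test. Lymphocyte markers summed to 0.337 to 0.397 and 0.455 to 0.623, with Cd3d and Ms4a1 among those too dim to test. Endothelial markers summed to 7.69 to 9.54 and 8.43 to 12.1 (Cdh5 not tested), myofibre markers to 3.98 to 6.60 and 3.85 to 8.69 (Mylpf not tested), and pericyte markers to 11.2 to 19.2 and 10.2 to 16.2. Macrophage markers summed to 91.6 to 101 and 95.8 to 115, nearly all of it from Itgam, the gene of the CD11b that was sorted against, at 6.44 to 6.78 on every sample. C1qa and Lyz2 of the same list were too dim to test. The part of these other cell types in the values of the ribosomal genes was not tested.

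The lean of the medians held its sign under each processing tried, and its size did not. The large subunit median ran from -0.25, with arrays scaled to their median, to -0.06 within row 1, and the small subunit median from -0.22 to -0.08. Scaling arrays to their median also moved the median of all features, to -0.09. The count of 76 genes that passed was 0 under every setting.

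**Figure D5:**
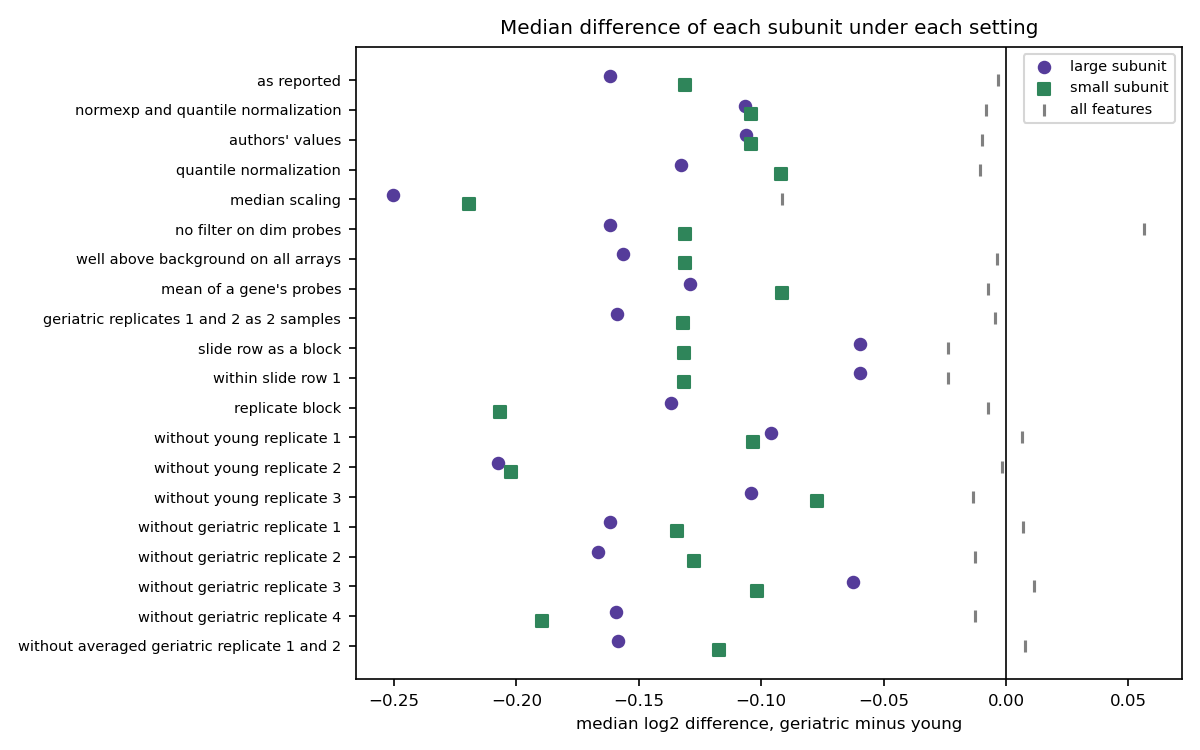
Median log2 difference, geriatric minus young (x axis), of the large subunit (purple circles), the small subunit (green squares) and all features (grey ticks) under each processing (y axis). Both subunits lie below 0 in every setting, and the large subunit comes nearest to 0 at -0.06 within slide row 1 (the block on slide row gives the same value by construction) and without geriatric replicate 3.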

How the data were processed

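The scanner files hold spot intensity columns made by Agilent Feature Extraction (version 10.7.3.1), and in the deposited processed signal a detrended background was subtracted, per the file headers. The authors' value table, on a log2 scale, served as an alternative and the sources used here do not name the software behind it. The members, lists and rules were chosen with earlier results of these data known.

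Each array was scaled to its 75th percentile without control probes, after removal of 124 to 229 outlier spots, and repeated spots were averaged. A probe was tested where at least 3 of 7 arrays showed it well above background, and the brightest one stood for its gene. The test was limma 3.58.1 (moderated, two-sided) in R 4.3.3, with Benjamini-Hochberg adjustment over 27398 features, and its script was tested on simulated data. Named were, per subunit, the 5 genes with the smallest p in each direction, Mrps30, Mrps18a, Mrps36 and genes with probes over 1 log2 unit apart, and the 2 genes with the smallest p of each other list. Mrpl19, Mrpl21, Mrpl22, Mrpl28, Mrpl32, Mrpl34, Mrpl43, Mrpl44, Mrps2, Mrps11, Mrps14, Mrps16, Mrps21, Pax7, Itgam and the neighbours were named after their values were seen. Probe coordinates are on mm9, as in the files. RefSeq tables of GRCm38 held the names of all 76 genes. Alternatives covered background correction, normalization, filter, probe choice, slide row, replicate block and left-out arrays. The number of arrays limits the precision.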

Additional observations from a re-analysis of the deposited data

How the results depend on the processing

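No gene of either subunit passed in any of the alternatives, and both medians kept their sign. The 7 called features became 4 with normexp and quantile normalization, 4 with the authors' values, 2 with probes above background on all arrays, 3 within slide row 1, and 64 with geriatric replicates 1 and 2 as 2 samples. With slide row as a block 0 were called by limma (1633 at an unadjusted p under 0.05), and with the replicate block 0 (3554). Leaving out an array gave 0 to 8: 0 without young replicate 1 or 2 or geriatric replicate 4, 1 without the averaged geriatric sample, 2 without young replicate 3 or geriatric replicate 3, and 8 without geriatric replicate 1. The large subunit median was -0.060 within row 1 and, by construction since row 2 held no young array, -0.060 with slide row as a block; leaving out an array gave -0.21 to -0.063 for it (-0.063 without geriatric replicate 3) and -0.20 to -0.077 for the small subunit. Same-numbered samples deviated together at r of -0.02 to 0.02, so no pairing by number was seen. Geriatric replicates 1 and 2 share a sample name, and so few values cannot show that no pairing exists. With the replicate block the medians were -0.14 and -0.21. Signs turned for Mrpl14 (-0.032 by median scaling, and -0.052 to 0.16 over left-out arrays), Mrps36 (-0.020 by median scaling, -0.024 with slide row and within row 1, and -0.064 to 0.23 over left-out arrays), Mrps35 (-0.015 by median scaling, -0.017 without young replicate 1, and -0.19 to 0.26 over left-out arrays), Mrpl49 (-0.092) and Mrps18b (0.042) by the mean of probes, Mrps9 (-0.22 with slide row and within row 1), and Mrps28 (-0.029) and Mrps30 (0.020) without the averaged sample. The causes were not tested. Dim signal limits Mrpl21 alone among these genes.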
